A study of Mus musculus with 6 samples.

Results

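Tuft cells are rare chemosensory cells of the gut epithelium, and 8 genes that mark them were followed in the distal colon of mice without TNFR2, a receptor of tumor necrosis factor encoded by Tnfrsf1b. The genes were Pou2f3, Gfi1b, Trpm5, Alox5ap, Alox5, Il25, Dclk1 and Sh2d6, chosen as a list by name and found by symbol. A row was present for 7 of the 8 among the 23108 named rows, of 24617 rows in all. Sh2d6 (chromosome 6, 72513641 to 72534206, minus strand), an SH2 domain protein of tuft cells, had no row of its own and was not analysed here.

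Messenger RNA was sequenced from 3 TNFR2-/- mice and 3 wildtype (WT) mice. All 6 were males of 8 weeks, the labelled strain was C57Bl/6, and each library came from 1 mouse, so p-values measure the spread between these mice. No treatment is labelled for either genotype, and the sources used here do not say how the knockout allele was made or whether WT mice were littermates. Levels are the authors' FPKM, fragment counts scaled to transcript length and to library depth. Because the tissue was whole distal colon, fewer cells of a type and less RNA per cell cannot be told apart.

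Tuft cells depend on the transcription factor Pou2f3. They carry a cascade like that of taste cells, in which a receptor and its G protein act through phospholipase C to open the cation channel Trpm5. Once stimulated, intestinal tuft cells release IL-25, made from Il25, and leukotrienes, made by Alox5 with its partner Alox5ap, and both act on innate lymphoid cells that drive a type 2 response. Several of these genes are also used outside tuft cells, among them Alox5 and Alox5ap by macrophages, mast cells and neutrophils, and Dclk1 by neurons. The list of such uses is not complete, so no member was read as a measure of tuft cells alone.

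The targeted gene followed the labels in every library. Tnfrsf1b measured 1.17, 1.12 and 0.924 FPKM in TNFR2-knockout libraries 1, 2 and 3, against 7.49, 8.20 and 8.17 FPKM in WT libraries 1, 2 and 3 (limma, Benjamini-Hochberg adjusted p = 7.1e-05). Summed FPKM lay between 655274 and 709593 per library, and depth relative to WT library 1, read from the spacing of low values, was highest at 1.10 in knockout library 3 and lowest at 0.736 in WT library 3. Colon epithelium markers were abundant in each library, with Epcam, an epithelial adhesion molecule, at 558 FPKM or more. Libraries stood apart in tissue next to the colon. The summed level of 11 epidermis genes was 158, 607 and 1094 FPKM in knockout libraries and 1154, 549 and 1227 FPKM in WT libraries. That of 9 skeletal muscle genes was 149, 1993 and 1500 FPKM in knockout libraries and 8613, 2641 and 3127 FPKM in WT libraries. Each of the 9 was lower in the knockout without overlap, as were 12.5% of tested genes. Skeletal muscle signal thus went with genotype, and its part in other values was not tested. Knockout library 1 was the lowest in the epidermis and skeletal muscle sums, and WT libraries 1 and 3 were the highest. Results without these libraries, which leave 1 WT library, library 2, are given where they differ.

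The start regions of 3 members run from 250 bases before to 50 bases after the start, as listed in RefSeq for GRCm38.p6, the assembly also called mm10. Alox5 and Trpm5 are shown because their means lay in opposite directions between the genotypes, and Dclk1 because it is listed with a pair of starts whose transcripts share 1 FPKM value per library. Capitals mark a GC box.
Alox5, chr6:116461129-116461428, minus strand: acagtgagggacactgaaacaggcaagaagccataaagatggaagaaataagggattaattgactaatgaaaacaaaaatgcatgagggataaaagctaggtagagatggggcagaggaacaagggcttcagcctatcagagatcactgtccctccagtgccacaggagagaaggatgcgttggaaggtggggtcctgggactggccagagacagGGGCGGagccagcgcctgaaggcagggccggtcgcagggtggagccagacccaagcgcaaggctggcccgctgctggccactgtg
Trpm5, chr7:143094593-143094892, minus strand: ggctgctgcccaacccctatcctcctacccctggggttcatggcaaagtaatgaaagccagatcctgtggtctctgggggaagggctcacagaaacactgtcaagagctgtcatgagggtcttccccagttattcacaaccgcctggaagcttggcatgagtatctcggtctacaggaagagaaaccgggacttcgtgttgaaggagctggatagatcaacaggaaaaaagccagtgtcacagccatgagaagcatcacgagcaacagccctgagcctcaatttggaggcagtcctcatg
Dclk1, upstream start, chr3:55242114-55242413, plus strand: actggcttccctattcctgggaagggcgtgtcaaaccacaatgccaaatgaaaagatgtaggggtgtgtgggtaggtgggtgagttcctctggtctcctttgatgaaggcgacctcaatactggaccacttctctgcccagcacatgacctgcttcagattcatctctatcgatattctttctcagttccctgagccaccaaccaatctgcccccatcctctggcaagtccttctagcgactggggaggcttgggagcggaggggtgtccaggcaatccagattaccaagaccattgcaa
Dclk1, downstream start, chr3:55461478-55461777, plus strand: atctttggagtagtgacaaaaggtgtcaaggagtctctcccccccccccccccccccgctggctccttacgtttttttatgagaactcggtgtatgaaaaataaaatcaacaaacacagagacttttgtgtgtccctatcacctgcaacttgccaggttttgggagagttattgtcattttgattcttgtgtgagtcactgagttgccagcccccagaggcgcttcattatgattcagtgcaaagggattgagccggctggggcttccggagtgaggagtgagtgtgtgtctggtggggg
In these windows 3 motifs were searched on both strands: the octamer ATGCAAAT, which POU factors such as Pou2f3 bind, the GC box GGGCGG and the GATA motif GATAAG. The GC box was found in the Alox5 window alone of these 4 and is held by 35.7% of the 32851 listed promoters. The octamer was found in none of the 4 and is held by 1.74% of listed promoters, and the GATA motif was found in none of the 4 and is held by 7.44%. The windows of Gfi1b and Sh2d6, searched in the same way and not shown, held 1 GC box and 1 GATA motif in Gfi1b and none of the 3 motifs in Sh2d6.

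None of the 7 measured tuft cell genes was called between the genotypes, 3 in the limma test of well-measured genes and 4 in the same test with no filter on low values; 0.288% of all tested genes were called. The leukotriene pair Alox5ap and Alox5 lay lower in all 3 knockout libraries than in all 3 WT libraries, as did 12.5% of tested genes, at 70.3% and 75.8% of the WT mean. Trpm5 lay the other way, with a knockout mean 2.01 times the WT mean, but 1 knockout library fell below a WT library. Pou2f3, Gfi1b, Il25 and Dclk1 overlapped between the genotypes.

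The 7 genes spanned a wide range of levels per length. Alox5ap was the highest, with a mean of 10.8 FPKM over the 6 libraries, above 71.9% of named rows. Dclk1 followed with 2.57 FPKM and Alox5 with 1.46 FPKM, and the ranges of these 3 genes over libraries did not overlap. Pou2f3 averaged 0.366 FPKM, Trpm5 0.210 FPKM, Gfi1b 0.0710 FPKM and Il25 0.0190 FPKM, each overlapping its neighbour in this order. Alox5ap, Dclk1 and Alox5 thus had the most signal, and Pou2f3, Trpm5, Gfi1b and Il25 lay below 0.5 FPKM on average.

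**Figure D1:**
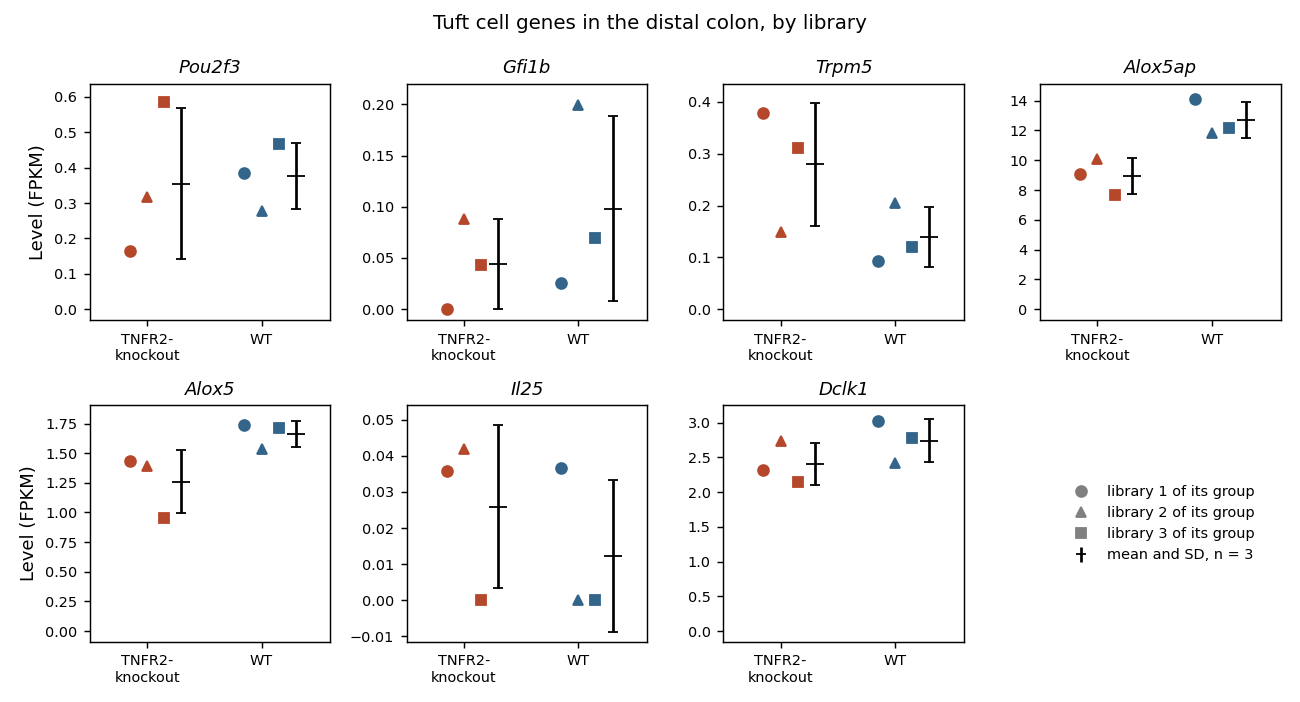
Level in FPKM of each of the 7 measured tuft cell genes by library, 1 panel per gene with its own axis, TNFR2-knockout left (red) and WT right (blue); bars are mean and SD of 3 libraries. Alox5ap and Alox5 are the panels in which all knockout points lie below all WT points, while in Trpm5 knockout library 2, at 0.149 FPKM, lies below WT library 2, at 0.204 FPKM.

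The test was limma on log2(FPKM + 1), knockout minus WT, over the 14564 genes that averaged 0.5 FPKM or more, and a gene was called where its Benjamini-Hochberg adjusted p fell under 0.05. Alox5ap, Alox5 and Dclk1 passed that filter and 0 of the 3 was called, where 0.288% of all tested genes were called. At an unadjusted limma p under 0.05 the count was 1 of 3, Alox5ap, which was lower, where 9.91% of tested genes reached that threshold in the lower direction and 6.3% in the higher. The groups did not overlap, with the knockout lower, in 2 of the 3, against 12.5% of tested genes, and 9.3% of tested genes did not overlap with the knockout higher. The median log2 change was -0.24 over the 3 tested genes and -0.07 over all 7 with a row, beside -0.03 over all tested genes. With 3 libraries a group, the smallest p that an exact two-sided permutation test of a single gene can give is 0.1.

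Pou2f3 (chromosome 9, 43123927 to 43205755, minus strand) encodes the POU-domain factor without which tuft cells do not form. It measured 0.165, 0.316 and 0.585 FPKM in knockout libraries 1, 2 and 3, against 0.385, 0.278 and 0.466 FPKM in WT libraries 1, 2 and 3. The lowest and the highest value were both knockout, and the WT range lay inside the knockout range. The means were 0.355 ± 0.213 FPKM in the knockout and 0.377 ± 0.0943 FPKM in WT (SD, n = 3 each; exact two-sided permutation p = 1). Multiplied by the relative depth of their library, values of a gene come close to whole multiples of 1 step, which need not be exactly 1 fragment. Steps grow with depth, so they show how much signal a library held. Levels are compared between libraries in FPKM, and steps are not compared between genes. In steps, Pou2f3 had 20, 33 and 77 in the knockout libraries and 46, 34 and 41 in WT libraries. Its spread in FPKM was wider in the knockout than in WT. The summed epidermis level was likewise lowest in knockout library 1, followed by WT library 2 and then knockout library 2. With an epidermis covariate the log2 change of Pou2f3 was 0.11, beside -0.03 without it. The part of epidermis in the Pou2f3 values was not tested. Coactivators of POU factors overlapped too. Pou2af3, a coactivator of Pou2f3 in tuft cells listed under its older symbol Gm684, measured 1.26, 0.944 and 1.36 FPKM in knockout libraries and 0.843, 0.967 and 0.946 FPKM in WT libraries (limma adjusted p = 0.399). Pou2af1, its relative in B cells, measured 1.29, 0.517 and 0.388 FPKM in knockout libraries and 1.13, 1.79 and 0.770 FPKM in WT libraries (log2 change -0.38 ± 0.24 SE, limma adjusted p = 0.454). In that gene knockout libraries 2 and 3 lay below all WT libraries and knockout library 1 did not. The summed level of 9 B cell markers was 17.8, 5.48 and 3.21 FPKM in knockout libraries and 19.5, 19.0 and 6.99 FPKM in WT libraries, lowest in the same 2 knockout libraries; their part in the Pou2af1 values was not tested.

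Gfi1b (chromosome 2, 28609450 to 28621982, minus strand), a zinc finger repressor of tuft cells and of erythroid and platelet precursors, had very little signal. It was listed at 0, 0.0877 and 0.0435 FPKM in knockout libraries, against 0.0256, 0.200 and 0.0694 FPKM in WT libraries. These values were 0, 3 and 2 steps in the knockout and 1, 8 and 2 steps in WT, each within 0.15 of a whole number (the value of knockout library 3 is 1.88 steps before rounding), so the highest WT library, WT library 2, carried most of the WT signal and the groups overlapped. In knockout library 1, listed at 0, 3 steps were worth 0.0754 FPKM, and the exact two-sided permutation test gave p = 0.5. A difference in Gfi1b was not detectable at this depth.

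Trpm5 (chromosome 7, 143071529 to 143094642, minus strand), the calcium-gated channel at the end of the taste-type cascade, measured 0.379, 0.149 and 0.312 FPKM in knockout libraries 1, 2 and 3. In WT libraries 1, 2 and 3 it measured 0.0929, 0.204 and 0.120 FPKM. Knockout libraries 1 and 3 were above all WT libraries, and knockout library 2 was below WT library 2. In steps the values were 83, 28 and 74 in the knockout and 20, 45 and 19 in WT. The means were 0.280 ± 0.119 FPKM in the knockout and 0.139 ± 0.0581 FPKM in WT (SD, n = 3 each; exact two-sided permutation p = 0.2). In limma with no filter on low values the log2 change was 0.17 ± 0.08 (SE, adjusted p = 0.372). With a pseudocount of 0.1 in place of 1 it was 0.64. Without the libraries that stood apart it was 0.03, but this drops knockout library 1, the highest, and keeps 1 WT library, the highest in WT. The authors' deposited table gave Trpm5 a log2 fold change of 0.99 with p = 0.0836 and a q-value of 1.00.

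The 3 libraries with the most Trpm5, knockout libraries 1 and 3 and WT library 2, were also the 3 with the highest summed level of colon epithelium markers. Over 8 such markers that sum was 4530, 3465 and 4392 FPKM in knockout libraries and 3347, 4801 and 3952 FPKM in WT libraries. The sum over 9 enteroendocrine genes, which mark the hormone cells of the epithelium, was likewise highest in those 3, at 468, 292 and 407 FPKM in knockout libraries and 276, 369 and 286 FPKM in WT libraries. Scaled to the epithelium markers, the log2 change of Trpm5 was 0.15, beside 0.17 unscaled. On log2(FPKM + 1) a gene this low hardly moves with such scaling, so the part of epithelial content in the Trpm5 values was not tested. Pou2f3 did not share this order: it was highest in knockout library 3 but lowest in knockout library 1 and WT library 2.

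The rest of the taste-type cascade held 14 listed genes, of which 5 were tested and 0 called. None had an unadjusted limma p under 0.05, and the median log2 change was 0.08. Over all tested genes 0.288% were called and 16.2% reached that p, so counts among 5 genes say little about the cascade. Itpr3, the receptor that releases stored calcium upstream of Trpm5, was the highest of those tested, at 21.5, 15.0 and 18.6 FPKM in knockout libraries and 15.6, 19.1 and 15.8 FPKM in WT libraries (limma adjusted p = 0.702). Its 3 highest libraries were again knockout libraries 1 and 3 and WT library 2, and the groups overlapped. Gnat3, the taste G protein subunit, stayed below the filter with 0.256, 0.160 and 0.145 FPKM in knockout libraries and 0.180, 0.0782 and 0.109 FPKM in WT libraries. Plcb2, the phospholipase C of this cascade, lay the other way on average, with 0.383, 0.193 and 0.121 FPKM in knockout libraries and 0.326, 0.326 and 0.325 FPKM in WT libraries. Rgs13, a regulator of G protein signalling found in tuft cells, measured 0.517, 0.155 and 0.272 FPKM in knockout libraries and 0.180, 0.205 and 0.163 FPKM in WT libraries. Gnat3, Plcb2 and Rgs13, like Trpm5, were highest in knockout library 1 and overlapped between the genotypes. Over all 16 tuft cell genes with signal below the filter, members included, knockout library 1 was the highest in 7, WT library 1 in 4 and knockout library 3 in 2. Knockout library 1 was also the one with the least epidermis and skeletal muscle signal.

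Alox5ap (chromosome 5, 149265004 to 149288153, plus strand) encodes FLAP, the membrane protein that presents arachidonic acid to the lipoxygenase. It measured 9.08, 10.1 and 7.64 FPKM in knockout libraries 1, 2 and 3, against 14.1, 11.8 and 12.2 FPKM in WT libraries 1, 2 and 3. The highest knockout library, library 2, was below the lowest WT library, library 2 as well. The means were 8.93 ± 1.22 FPKM in the knockout and 12.7 ± 1.23 FPKM in WT (SD, n = 3 each). The log2 change was -0.47 ± 0.11 (SE; 95% interval -0.73 to -0.20; limma adjusted p = 0.196). The interval leaves out 0, but the gene did not pass the test over all genes. In the authors' deposited table its log2 fold change was -0.51 with p = 0.178.

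Alox5 (chromosome 6, 116410071 to 116461178, minus strand) encodes the lipoxygenase itself, which makes the precursor of all leukotrienes. It measured 1.43, 1.39 and 0.953 FPKM in knockout libraries, against 1.74, 1.53 and 1.71 FPKM in WT libraries. All knockout values were below all WT values, with knockout library 3 the lowest. In steps the values were 197, 164 and 142 in the knockout and 235, 212 and 170 in WT. Steps are not corrected for depth, so WT library 3, the shallowest, had fewer steps than knockout library 1. The log2 change was -0.24 ± 0.11 (SE; 95% interval -0.50 to 0.02; limma adjusted p = 0.331). For both genes of the pair knockout library 3 was the lowest of the 6 and WT library 1 the highest, with WT libraries 3 and 2 next in that order. Ranked by likeness of profile over the 6 libraries, Alox5 was number 214 of 14563 tested genes from Alox5ap. Most tested genes thus followed Alox5ap less closely than its enzyme did, but many followed it more closely.

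Other genes of leukotriene and prostaglandin synthesis numbered 7, all tested, with 0 called, 2 lower and 2 higher at an unadjusted limma p under 0.05, and a median log2 change of -0.04. Ltc4s, which makes leukotriene C4, measured 4.18, 6.65 and 3.99 FPKM in knockout libraries and 8.19, 5.24 and 7.69 FPKM in WT libraries (log2 change -0.44 ± 0.21 SE, limma adjusted p = 0.353). Knockout library 2 lay above WT library 2, so the groups overlapped. Lta4h, which makes leukotriene B4, differed little, at 61.3, 51.5 and 56.0 FPKM in knockout libraries and 56.6, 60.9 and 56.2 FPKM in WT libraries (log2 change -0.04 ± 0.08 SE, limma adjusted p = 0.822). The prostaglandin genes went different ways without passing the test. Ptgs1, the cyclooxygenase of tuft cells among others, measured 12.8, 13.5 and 12.6 FPKM in knockout libraries and 16.0, 14.4 and 15.5 FPKM in WT libraries (log2 change -0.22 ± 0.07 SE, limma adjusted p = 0.239). Hpgds, the hematopoietic prostaglandin D synthase, measured 5.41, 7.11 and 5.85 FPKM in knockout libraries and 3.76, 5.18 and 4.82 FPKM in WT libraries (log2 change 0.35 ± 0.13 SE, limma adjusted p = 0.279). Hpgd, which breaks prostaglandins down, measured 113, 108 and 110 FPKM in knockout libraries and 88.7, 101 and 90.9 FPKM in WT libraries (log2 change 0.24 ± 0.07 SE, limma adjusted p = 0.246). Ptgs2, the inducible cyclooxygenase, measured 2.11, 2.17 and 2.23 FPKM in knockout libraries and 3.00, 2.47 and 3.51 FPKM in WT libraries (log2 change -0.32 ± 0.11 SE, limma adjusted p = 0.269). The groups did not overlap in these 4 genes, with Ptgs1 and Ptgs2 lower and Hpgds and Hpgd higher in the knockout. Over all tested genes 12.5% were lower and 9.3% higher with no overlap. At an unadjusted limma p under 0.05, 9.91% of all tested genes were lower and 6.3% higher. Ptgs1, Ptgs2 and Hpgds were chosen for mention after their values were seen.

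Leukotriene receptors and other lipoxygenases numbered 9, of which 7 were tested, 6 with a lower mean, as had 57.4% of all tested genes, and 0 called. Where 9.91% of all tested genes were lower at an unadjusted limma p under 0.05, 1 of the 7 was. That one was Cysltr2, a receptor of cysteinyl leukotrienes, with 0.382, 0.231 and 0.375 FPKM in knockout libraries and 0.643, 0.723 and 0.733 FPKM in WT libraries (log2 change -0.36 ± 0.09 SE, limma adjusted p = 0.209), named after its values were seen. All its knockout values were below all WT values. Cysltr1, the other such receptor, measured 1.21, 1.62 and 0.873 FPKM in knockout libraries and 1.99, 1.32 and 1.85 FPKM in WT libraries and overlapped (limma adjusted p = 0.389). Alox15, a lipoxygenase of a different branch, measured 1.17, 1.97 and 1.64 FPKM in knockout libraries and 1.45, 1.72 and 1.86 FPKM in WT libraries and overlapped (limma adjusted p = 0.863). Alox12b, a lipoxygenase of the skin barrier, ranged from 0.196 to 2.95 FPKM in knockout libraries and from 0.841 to 2.69 FPKM in WT libraries.

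Because macrophages and monocytes also use Alox5 and Alox5ap, their markers were read beside these genes. Of 11 markers, all tested, 10 had a lower mean in the knockout, 8 of them with no overlap, and 0 was called, with 8 lower at an unadjusted limma p under 0.05. Over all tested genes 57.4% had a lower mean, 12.5% were lower with no overlap and 9.91% were lower at that p. Their summed level was 435, 435 and 308 FPKM in knockout libraries 1, 2 and 3, against 568, 502 and 531 FPKM in WT libraries 1, 2 and 3. All knockout sums were below all WT sums. The order of the 6 libraries was that of Alox5ap, but knockout libraries 1 and 2 nearly tied in the sum, at 434.7 and 434.9 FPKM. Lyz2, the lysozyme of myeloid cells, measured 169, 163 and 110 FPKM in knockout libraries and 246, 213 and 207 FPKM in WT libraries (log2 change -0.61 ± 0.17 SE, limma adjusted p = 0.227), and no marker of the list was at 0 in all libraries. Mast cell markers, of which 5 of 11 were tested and 4 had a lower mean, summed to 12.5, 14.3 and 14.2 FPKM in knockout libraries and 18.7, 13.2 and 18.2 FPKM in WT libraries, with the receptor genes Fcer1a and Ms4a2 at 0.214 FPKM or less. Cma1, a mast cell chymase, measured 2.87, 3.59 and 2.91 FPKM in knockout libraries and 3.90, 3.76 and 4.63 FPKM in WT libraries, lower in all knockout libraries than in any WT library (log2 change -0.31 ± 0.11 SE, limma adjusted p = 0.273), and Kit, which interstitial cells also express, overlapped at 7.18, 6.39 and 6.38 FPKM in knockout libraries and 7.04, 5.97 and 6.04 FPKM in WT libraries. Neutrophil markers, of which 3 of 10 were tested, summed to 3.18, 19.9 and 12.9 FPKM in knockout libraries and 9.39, 6.95 and 15.2 FPKM in WT libraries, with Elane and Ngp at 0 in all. Most of that sum was S100a8 and S100a9, calcium-binding proteins also made by the epidermis, with S100a8 at 0.913, 10.04 and 5.43 FPKM in knockout libraries and 4.54, 2.42 and 7.85 FPKM in WT libraries and S100a9 at 1.08, 8.21 and 5.46 FPKM in knockout libraries and 3.55, 3.14 and 5.94 FPKM in WT libraries; both overlapped. No eosinophil marker reached the filter, and Epx, which defines eosinophils, was at 0 in all libraries. Prg2 measured 0.241, 0.280 and 0.167 FPKM in knockout libraries and 0.153, 0.120 and 0.0832 FPKM in WT libraries, higher without overlap. Il5ra measured 0.233, 0.173 and 0.239 FPKM in knockout libraries and 0.132, 0.203 and 0.152 FPKM in WT libraries and overlapped. Ccr3 and Ear1 had lower means in the knockout. Of the markers of interstitial cells and fibroblasts, 7 in number and all tested, 6 had a lower mean, 2 of them with no overlap, and 5 were lower at an unadjusted limma p under 0.05, with a median log2 change of -0.44. Their sum was 650, 849 and 662 FPKM in knockout libraries and 1097, 787 and 1006 FPKM in WT libraries, so it overlapped at library 2 of each genotype. Dcn, a matrix proteoglycan, measured 262, 381 and 270 FPKM in knockout libraries and 520, 351 and 463 FPKM in WT libraries (log2 change -0.55 ± 0.20 SE, limma adjusted p = 0.274). The other gene of the list, Ano1, a chloride channel of interstitial cells, was called higher, at 79.3, 76.3 and 79.8 FPKM in knockout libraries and 51.7, 56.4 and 50.8 FPKM in WT libraries (log2 change 0.56 ± 0.07 SE, limma adjusted p = 0.036). The part of these cells in the Alox5ap and Alox5 values was not tested.

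**Figure D2:**
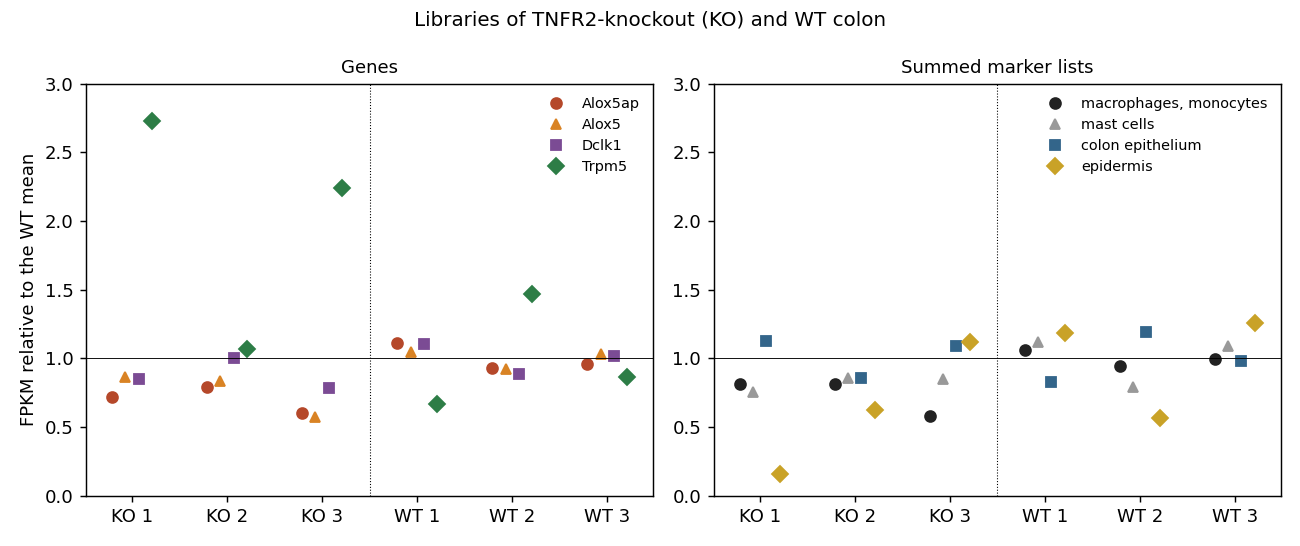
Left, FPKM of Alox5ap, Alox5, Dclk1 and Trpm5 in each library divided by the WT mean of that gene; right, the summed FPKM of 4 marker lists divided by their WT mean, knockout (KO) libraries left of the dotted line and WT libraries right of it. Alox5ap and the macrophage and monocyte sum have the same order over the 6 libraries, with knockout libraries 1 and 2 nearly tied in the sum. Trpm5 is highest in knockout libraries 1 and 3 and WT library 2, where the epithelium sum is highest.

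Il25 (chromosome 14, 54932695 to 54935837, plus strand), the cytokine by which tuft cells alert innate lymphoid cells, was at the limit of measurement. It was listed at 0.0359, 0.0418 and 0 FPKM in knockout libraries, against 0.0365, 0 and 0 FPKM in WT libraries. Each value above 0 was a single step, present in knockout libraries 1 and 2 and WT library 1. In the libraries at 0, 3 steps were worth 0.0994 FPKM in knockout library 3, against 0.107 and 0.149 FPKM in WT libraries 2 and 3, so no difference was detectable at this depth (exact two-sided permutation p = 0.7).

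The type 2 circuit around IL-25 was listed with 16 genes. Of these 11 were tested, 9 with a lower mean in the knockout, and 0 was called, with 2 lower at an unadjusted limma p under 0.05 and a median log2 change of -0.12. Over all tested genes 57.4% had a lower mean and 9.91% were lower at that p. Il17rb, the binding subunit of the IL-25 receptor, measured 0.596, 0.682 and 0.436 FPKM in knockout libraries and 0.596, 0.490 and 0.440 FPKM in WT libraries. The groups overlapped, with both the highest and the lowest value in the knockout (limma adjusted p = 0.796). Il13ra1, a receptor of the type 2 cytokine IL-13, had 34.6, 26.7 and 29.6 FPKM in knockout libraries and 29.0, 31.2 and 28.0 FPKM in WT libraries and overlapped. Il4ra, the receptor chain shared by IL-4 and IL-13, had 9.49, 9.34 and 7.55 FPKM in knockout libraries and 10.8, 10.7 and 10.6 FPKM in WT libraries. All knockout values of Il4ra were below all WT values, with a log2 change of -0.27 ± 0.09 (SE; limma adjusted p = 0.273). Areg, a growth factor that innate lymphoid cells make among others, had 12.7, 10.5 and 19.3 FPKM in knockout libraries and 13.6, 20.4 and 19.4 FPKM in WT libraries (limma adjusted p = 0.525). Gata3 and Rora, transcription factors of those lymphoid cells, had limma adjusted p of 0.488 and 0.301. Both were lowest in knockout library 1 and highest in WT library 1, with Gata3 at 0.178 FPKM in that knockout library and 1.75 FPKM in that WT library, and Rora at 1.34 FPKM in the knockout library and 3.11 FPKM in the WT library. Knockout library 1 had the least epidermis signal and WT library 1 the most skeletal muscle signal; their part in these values was not tested. The row named Clca1 measured 0.773, 1.13 and 0.718 FPKM in knockout libraries and 1.04, 0.832 and 1.24 FPKM in WT libraries and overlapped (limma adjusted p = 0.633). Older symbols occur in these data, as for Pou2af3, so which Clca gene that row holds was not checked. Products of the response were low. Il9 was at 0 in all 6 libraries, Il13 was above 0 in knockout library 1 at 0.0317 FPKM and in no other, and Retnlb was above 0 in WT library 1 at 0.112 FPKM and in no other.

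Dclk1 (chromosome 3, 55242303 to 55539068, plus strand), a doublecortin-like kinase used as the standard tuft cell marker in mice, measured 2.32, 2.74 and 2.15 FPKM in knockout libraries 1, 2 and 3. In WT libraries 1, 2 and 3 it measured 3.03, 2.42 and 2.78 FPKM. WT library 2 was below knockout library 2, so the groups overlapped. The means were 2.41 ± 0.303 FPKM in the knockout and 2.74 ± 0.305 FPKM in WT (SD, n = 3 each), a log2 change of -0.14 ± 0.10 (SE; 95% interval -0.38 to 0.11; limma adjusted p = 0.531). Without the libraries that stood apart, which leaves 1 WT library, the log2 change was 0.01. The gene has 8 coding transcript starts in the GENCODE annotation, and 1 value per library cannot separate the transcripts of tuft cells from those of neurons. Markers of enteric neurons and glia, 10 in number and all tested, had a lower mean in 9, as had 57.4% of all tested genes. They summed to 38.3, 53.6 and 50.8 FPKM in knockout libraries and 69.0, 46.4 and 59.1 FPKM in WT libraries. As in Dclk1, WT library 1 was the highest and WT library 2 was below knockout library 2; the part of nerve tissue in the Dclk1 values was not tested.

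The cytoskeleton, adaptor and other tuft cell markers numbered 30, of which 23 were tested, 19 with a lower mean, 0 called, and 6 lower and 0 higher at an unadjusted limma p under 0.05, where over all tested genes 57.4% had a lower mean, 9.91% were lower at that p and 6.3% higher. Their median log2 change was -0.18. Ly6g6d, a small surface protein gene listed as a tuft cell marker, had the largest change, with 4.49, 2.59 and 3.98 FPKM in knockout libraries and 7.17, 5.09 and 6.05 FPKM in WT libraries (log2 change -0.61 ± 0.18 SE, limma adjusted p = 0.235). All its knockout values were below all WT values. Its neighbour Ly6g6f lay the other way at a far lower level, with 0.309, 0.103 and 0.102 FPKM in knockout libraries and 0, 0.0439 and 0.0915 FPKM in WT libraries. Kctd12, an auxiliary subunit of GABA-B receptors, had 9.80, 10.8 and 8.85 FPKM in knockout libraries and 14.0, 11.7 and 13.0 FPKM in WT libraries (log2 change -0.37 ± 0.09 SE, limma adjusted p = 0.212), also without overlap. Hebp1, a heme-binding protein, had 5.23, 7.36 and 6.31 FPKM in knockout libraries and 10.9, 6.57 and 8.00 FPKM in WT libraries and overlapped (limma adjusted p = 0.371).

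The most abundant of these markers are shared with other cells of the colon. Krt18, a keratin of all simple epithelia, had 302, 230 and 264 FPKM in knockout libraries and 240, 323 and 261 FPKM in WT libraries (limma adjusted p = 0.892). Cd24a, a surface glycoprotein of crypt cells and leukocytes, had 121, 98.9 and 104 FPKM in knockout libraries and 113, 136 and 120 FPKM in WT libraries (limma adjusted p = 0.411). Lrmp, a membrane protein of the endoplasmic reticulum, had 42.8, 41.5 and 49.4 FPKM in knockout libraries and 36.8, 42.5 and 39.5 FPKM in WT libraries (limma adjusted p = 0.409). The groups overlapped in each of Krt18, Cd24a and Lrmp.

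Over all 54 listed tuft cell genes besides the members, 50 had a row of their own and 37 were tested. Of these, 26 had a lower and 11 a higher mean in the knockout, and 0 was called by limma, with 8 lower and 2 higher at an unadjusted p under 0.05. Across all tested genes 57.4% had a lower mean and 16.2% reached that unadjusted threshold, 9.91% lower and 6.3% higher. Of the 37, 8 were lower and 2 higher with no overlap, against 12.5% and 9.3% of all tested genes. The median log2 change of the 37 was -0.13. Without the libraries that stood apart 2 of them were called, Spib and Pou2af1, both lower and both genes that B cells also use; in that setting 130 of all genes were called, against 42 with all libraries.

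**Figure D3:**
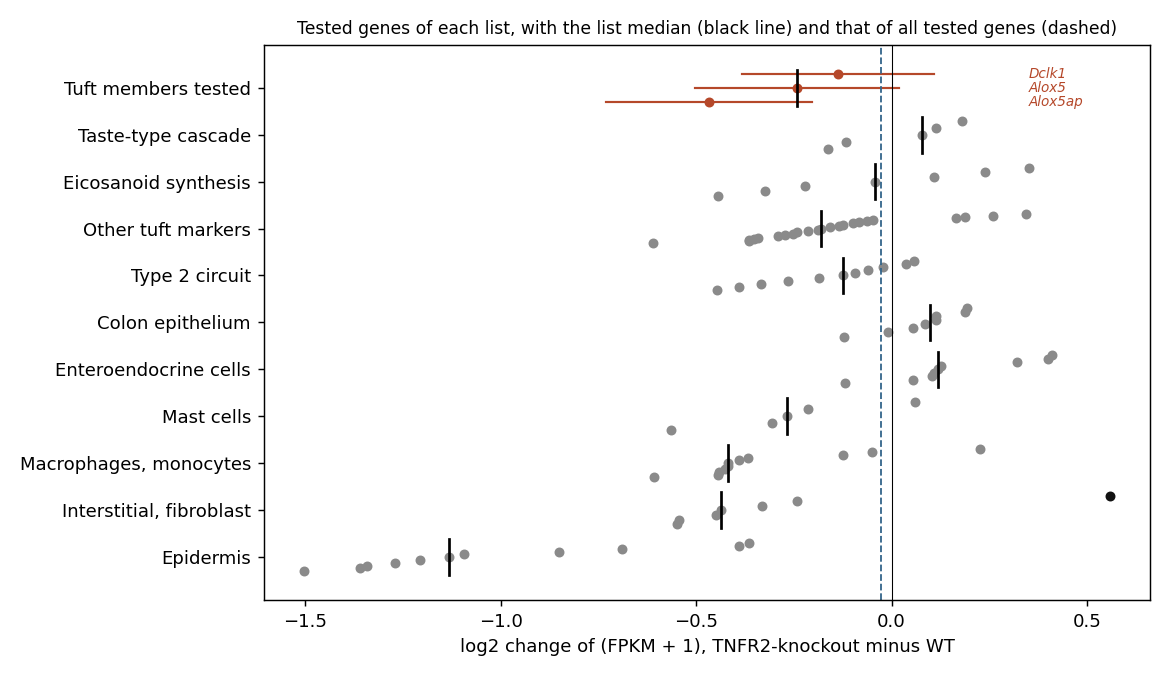
The log2 change of (FPKM + 1), TNFR2-knockout minus WT, for each tested gene of the members, 3 further tuft cell lists, the type 2 circuit and 6 marker lists, with the list median as a black line and the median of all tested genes, -0.03, dashed; the 3 tuft members carry 95% intervals, and the black point is the called gene Ano1. Of the members, the interval of Alox5ap leaves out 0, and the macrophage and monocyte list and the interstitial cell and fibroblast list have medians of -0.42 and -0.44.

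Likeness of profile to the tested members was the mean absolute difference, over the 6 libraries, between a gene's centred log2(FPKM + 0.1) and the mean profile of Alox5ap, Alox5 and Dclk1, among 14561 genes. The nearest 5 were Robo4 (0.0123), an endothelial receptor, Man1c1 (0.0225), a Golgi mannosidase, Loxl2 (0.0275), which crosslinks collagen, Ly6c1 (0.0298), a surface antigen of endothelial and myeloid cells, and Col15a1 (0.0305), a basement membrane collagen. The nearest, Robo4, had 2.58, 2.80 and 2.08 FPKM in knockout libraries and 3.42, 2.85 and 3.18 FPKM in WT libraries. The profile they were chosen to match is lower in all knockout libraries than in any WT library, so the direction of these 5 genes follows from the choice. Among the tuft cell and type 2 genes the nearest were Kctd12 at rank 20, Il1rl1 at rank 148, Il4ra at rank 235 and Ptgs1 at rank 304. Gng13, the G protein subunit of the taste-type cascade, was the farthest of these lists at rank 14269.

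Paralogs of the members gave no call either. Of 26 close relatives, 12 were tested, 7 with a higher and 5 with a lower mean, with 2 higher and 1 lower at an unadjusted limma p under 0.05. Over all tested genes 57.4% had a lower mean, and at that p 6.3% were higher and 9.91% lower. Trpm4 and Trpm6, channels of the same family as Trpm5, stood far above it: Trpm4 had 29.2, 26.1 and 31.7 FPKM in knockout libraries and 21.7, 26.5 and 24.3 FPKM in WT libraries (limma adjusted p = 0.295), and Trpm6 had 34.4, 28.7 and 34.1 FPKM in knockout libraries and 24.3, 33.6 and 25.7 FPKM in WT libraries (limma adjusted p = 0.444). Sh2d4a, a relative of Sh2d6, had 26.0, 21.3 and 24.8 FPKM in knockout libraries and 17.5, 24.0 and 18.5 FPKM in WT libraries (limma adjusted p = 0.367). All 3 overlapped between the genotypes, and in all 3 the highest libraries were knockout libraries 1 and 3.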

How the data were processed

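Values are FPKM per gene and library as deposited by the authors, per the file headers. Per the series' design text, reads were aligned with Tophat2 and Bowtie2, assembled with Cufflinks and compared with Cuffdiff 2; the same table holds the authors' log2 fold change, p-value and q-value. Per the submitters' processing notes the build was mm10; tool versions, annotation and strandedness were not stated in the labels. Overlapping antisense genes (Gm21954 and Gm42609 at Dclk1, Gm19719 at Alox5ap) could therefore share reads with members. Depth in reads is not in the table. Rows without a gene name, 6.13% of the table and 17.7% of summed FPKM, were left out.

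Genes averaging 0.5 FPKM or more were tested on log2(FPKM + 1) with limma 3.58.1 (R 4.3.3; trend and robust moderation, no covariates) and Benjamini-Hochberg adjustment. This scale understates changes of low genes. Members below the filter were given by value and an exact permutation test. For steps, each value of a gene was multiplied by the relative depth of its library. A step is the largest increment of which all 6 products are whole multiples, within a tolerance of 0.02 of a step. The tolerance was 0.15 for genes of few steps (Gfi1b and Il25). The test was also run on simulated data with independent noise per gene and changes only in well-expressed genes. That simulation does not cover Alox5, the members below the filter or tissue differences between libraries. Named besides the members were the called, the most expressed and the most changed genes of each list, and the 5 nearest profiles; genes outside this rule were chosen after their values were seen. The members and lists were chosen with earlier results of these data known. Alternatives were pseudocount, filter, scaling, moderation, replicate block, an epidermis covariate and leaving out libraries. Positions are from RefSeq for GRCm38.p6.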

Additional observations from a re-analysis of the deposited data

How the results depend on the processing

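Under all 15 alternatives 0 of the 3 tested members was called, as was 0 of the type 2 genes. Alox5ap and Alox5 kept a lower mean in each, with log2 changes between -0.55 and -0.37 (adjusted p 0.107 to 0.959) and between -0.39 and -0.14 (adjusted p 0.250 to 1.00). Dclk1 changed sign to 0.0063 (adjusted p = 1.00) without knockout library 1 and WT libraries 1 and 3, a choice made after seeing the data that leaves 1 WT library, assumed to vary like the others; it was between -0.21 and -0.08 elsewhere. There 2 other tuft genes were called, Spib and Pou2af1, against 0 in every other setting, and the median of the 7 members was 0.0063. The cause was not tested. Of the members below the filter, Trpm5 kept a higher mean, between 0.03 and 0.64, the highest with a pseudocount of 0.1, and Pou2f3 lay on both sides of 0, between -0.15 and 0.18. Over all genes, 42 were called, against 24 with the replicate block, 26 with the epidermis covariate and 130 without the libraries that stood apart. Leaving out 1 library gave 21 to 74, with 21 without knockout library 3, 27 without WT library 1, 22 without WT library 3 and 74 without WT library 2. Libraries of the same number share only that number: their deviations correlated at -0.375, -0.337 and 0.209, and the block changed no member's call. Depth limits Il25 and Gfi1b, at 8 steps or fewer in any library.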
